A study of Mus musculus with 2 samples.

Results

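The sodium pump, Na,K-ATPase, sits in the basolateral membrane of tubule cells that reabsorb sodium and drives this reabsorption by exchanging sodium for potassium. Its catalytic alpha subunit needs a beta subunit to reach the membrane, and a small FXYD protein bound to the pair tunes the affinity of the pump for its ions. FXYD proteins are named after a short signature motif before their single membrane span, and each has its own tissues: FXYD2, the gamma subunit, and FXYD4, also called CHIF, are the classical FXYD proteins of the nephron and the collecting duct. Here 2 beta subunit genes, Atp1b1 and Atp1b3, and 6 FXYD genes, Fxyd1 to Fxyd6, were described in collecting duct cells with and without Gata2. They were chosen by name, as every probe that is not a control and carries one of these gene names. Earlier results of these data were known when the genes were chosen. This gave 12 of the 41174 probes of the array, and all 8 genes were measured.

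The cells came from kidneys of mice aged 8 weeks. Doxycycline had been given to them over the last 4 weeks, from the age of 4 weeks on, and the cells were purified with the lectin DBA and magnetic beads. The WT mice are labelled wild type, with no transgene given. The knockout mice (CKO) are labelled Gata2flox/-::Pax8-rtTA::Tet-Cre, that is, 1 floxed and 1 null Gata2 allele with a doxycycline-dependent Cre driven in renal tubules, so that loss of 1 allele outside the tubules cannot be told apart from deletion within them. Each genotype was measured on 1 one-colour array. Per the design text 3 mice were used for each genotype, of mixed sex by the labels, but whether RNA of the 3 was pooled is not said outright. With 1 array a genotype, none of the differences has a replicate check, and none was tested.

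All values are log2 signals relative to the 75th percentile of the array, and all differences are CKO minus WT. The error printed after ± is that of the scanner software for the spots of both arrays. It covers neither mice nor purification nor labelling. Over repeated spots of 1 probe, differences had an SD of 0.28 in the dimmest of 5 brightness groups and 0.035 in the brightest. For bright probes the spot error is thus wider than the scatter of repeated spots. Where a gene had several probes, which held for 5309 genes, their differences scattered by 0.27 (SD, root mean square). A signal counted as well above background by the mark of the software, and the lowest such signal was 12.0 in WT and 11.6 in CKO. Gata2 itself was lower by its probes, at −0.37 ± 0.20 and −0.32 ± 0.20, and no label names the exons removed. Markers of principal cells were measured in 11 of 11 genes and those of intercalated cells in 12 of 12, but so were all 14 markers of macrophages and dendritic cells. In such mixed RNA, fewer cells of a type and less RNA per cell cannot be told apart.

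The 4 probes that cross a splice junction are shown because they tie the signal to spliced RNA and because 2 of them cover the signature that defines the family. Each has 60 bases, and capitals mark the 15 bases that spell the PFxYD signature codons.

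Fxyd2: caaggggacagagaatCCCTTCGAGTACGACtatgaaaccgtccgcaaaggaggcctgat

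Fxyd3: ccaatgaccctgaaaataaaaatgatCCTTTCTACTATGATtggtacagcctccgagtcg

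Fxyd1: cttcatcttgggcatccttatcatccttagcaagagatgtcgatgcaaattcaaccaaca

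Fxyd6: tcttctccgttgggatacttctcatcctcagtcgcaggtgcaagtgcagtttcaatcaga

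Of the 41174 probes, 2 hold the signature codons on the strand given, and these are the Fxyd2 and Fxyd3 probes. In mm9, the build of the files, the Fxyd2 probe lies on the plus strand at chr9:45216199-45216413 and the Fxyd3 probe on the minus strand at chr7:31856365-31857214. The Fxyd1 and Fxyd6 probes lie at chr7:31838050-31838447, on the minus strand, and at chr9:45198905-45199673, on the plus strand. Aligned without gaps, the Fxyd1 and Fxyd6 probes were identical at 37 of 59 overlapping bases. The Fxyd2 probe is listed with 3 RefSeq transcripts and the Fxyd1 probe with 4, so their splice forms were not separated.

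The first comparison asked how the beta subunits differed between the genotypes. Atp1b1, which encodes the beta 1 subunit that carries the catalytic subunit to the membrane, was higher on the CKO array, and Atp1b3, the beta 3 subunit, was not beyond the spot error. Atp1b1 gave signals of 45283 in WT and 56309.6 in CKO. Relative to the scale of each array this was 0.64 ± 0.20 higher, or 1.56-fold, at a single probe on chr1:166368263-166368322. Of all measured genes, 5.38% were at least as much higher. It was 0.57 with normexp background correction and 0.45 with quantile normalization, both short of 1.5-fold, and 0.60 with cyclic loess. It came to 0.10 when the arrays were scaled to equal levels of added spike-in RNA, which moves all differences by −0.55.

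Atp1b3 had 3 probes, at positions 418, 1073 and 1549 of its transcript. The probe at position 418 had signals of 616.6 in WT and 446.8 in CKO. At position 1073 the signals were 2108 and 1538, and at position 1549 they were 2744 and 1959. All 3 gave almost the same difference, from −0.16 to −0.12, with a mean of −0.14 and a standard deviation of 0.016. That spread between probes is below the root mean square of 0.27 over genes of all brightness. The 3 probes lie in groups 4 and 5 of the 5 brightness groups, the brighter end, so the comparison is not matched for brightness.

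**Figure D1:**
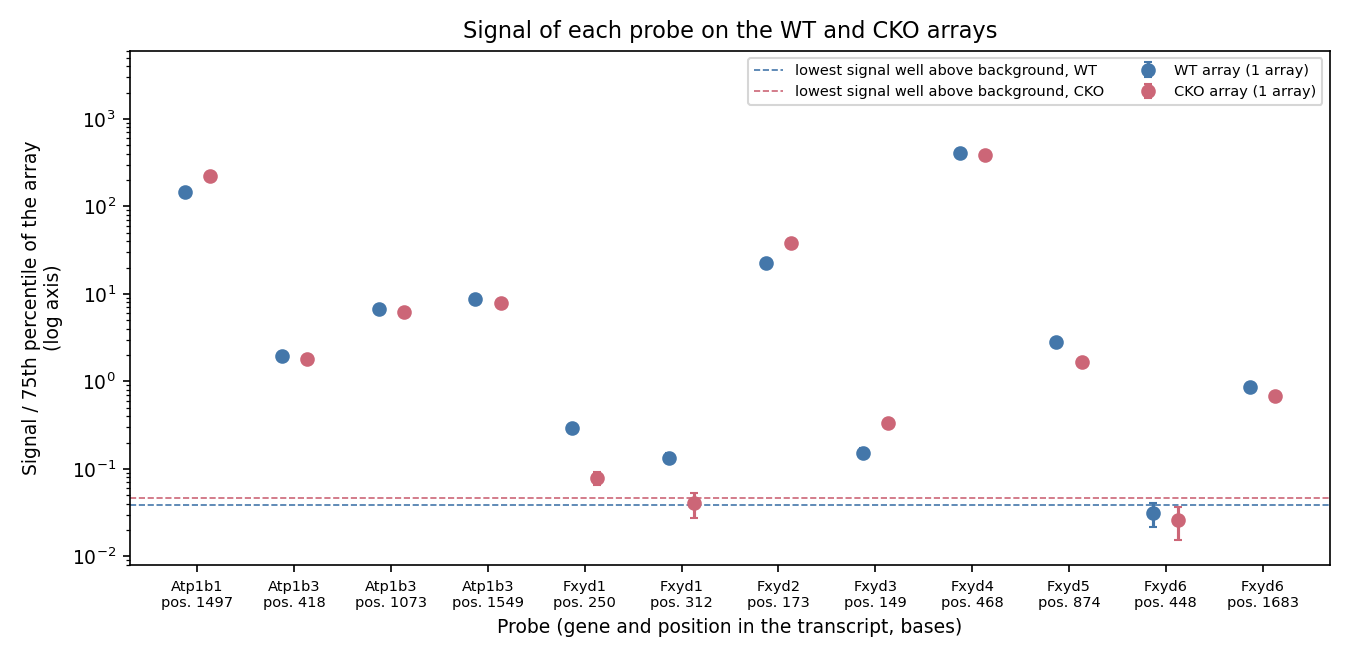
Signal of each of the 12 probes on the WT array (blue) and the CKO array (red), divided by the 75th percentile of its array, on a log axis; bars are the spot error of the software and dashed lines the lowest signal well above background on each array. Levels of different probes are not comparable with each other; the Fxyd6 probe at position 448 lies below the lines on both arrays and the Fxyd1 probe at position 312 below the line on the CKO array only.

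A contrast between the CKO minus WT differences of a pair of genes does not depend on a constant shift of either array. On that footing the difference of Atp1b1 was 0.80 ± 0.29 above that of Atp1b3. It was from 0.64 to 0.80 above it over the scalings and background corrections tried. Atp1b4, a further gene of the beta subunit family, was well above background on neither array.

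The next comparison concerned the FXYD proteins of the nephron. Fxyd2 was higher on the CKO array and Fxyd4 was not beyond the spot error. Fxyd2 encodes the gamma subunit, in which a mutation is linked to renal magnesium wasting. It gave signals of 7069.8 in WT and 9517 in CKO, a difference of 0.76 ± 0.20, or 1.69-fold, and 3.47% of all measured genes were at least as much higher. The value was 0.70 with normexp, 0.76 with quantile normalization and 0.72 with cyclic loess. With spike-in scaling it was 0.21, about the size of the spot error.

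Fxyd4 encodes CHIF, which raises the affinity of the pump for sodium and is known for its place in principal cells. It had signals of 129333 in WT and 96858 in CKO at chr6:117883603-117883662. After scaling these differed by −0.09 ± 0.20, less than the spot error. It was −0.37 after quantile normalization and −0.63 with spike-in scaling. The principal cell markers, a list without Fxyd4, had a median of −0.28. Of these, 8 of 11 were lower, beside 42% of all measured genes, and none was 2-fold apart. Among the 3 brightest of the list, Aqp3 was at −0.43, Aqp2 at −0.25 and Kcnj1 at −0.48. The 3 higher genes were Aqp4 at 0.62, Elf5 at 0.47 and Gata3 at 0.30, named after their values were seen. At least 1.5-fold apart were 1 higher gene, Aqp4, and 1 lower gene, Hsd11b2 at −0.61. Set against each other, the CKO minus WT difference of Fxyd2 was 0.85 ± 0.29 above that of Fxyd4, and 1.14 above it after quantile normalization.

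Markers of other tubule segments were set beside Fxyd2 and Atp1b1, and their part in these differences was not tested. Of all measured genes 57.1% were higher and 42% lower on the CKO array. Of 12 intercalated cell genes 11 were higher. Their median was 0.65, and their summed level, in units of the 75th percentile, was 437 in WT and 529.8 in CKO. Thick ascending limb genes were higher in 5 of 8, a share near that of all genes, with a median of 0.49. At 1.5-fold, however, 4 of the 8 were higher, beside 6.78% of all measured genes, and none lower. The brightest of this list were Kcnj1, a potassium channel gene that the principal cell list also holds, at −0.48, Umod, uromodulin, at 0.39 and Slc12a1, the cotransporter NKCC2, at −0.09. Their summed level was 184 in WT and 156 in CKO with Kcnj1, but 57.5 and 65.2 without it. Genes of the distal convoluted and connecting tubule were higher in 6 of 9, again near the share of all genes, with a median of 0.13. Their summed levels were 337 and 626, the latter led by Klk1. At least 1.5-fold apart were 2 higher genes, Klk1 at 1.51 and Trpv5 at 0.59, and 2 lower ones, Slc12a3 at −0.78 and Pvalb at −1.40. These were named after their values were seen. Proximal tubule genes were lower in 11 of 13.

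**Figure D2:**
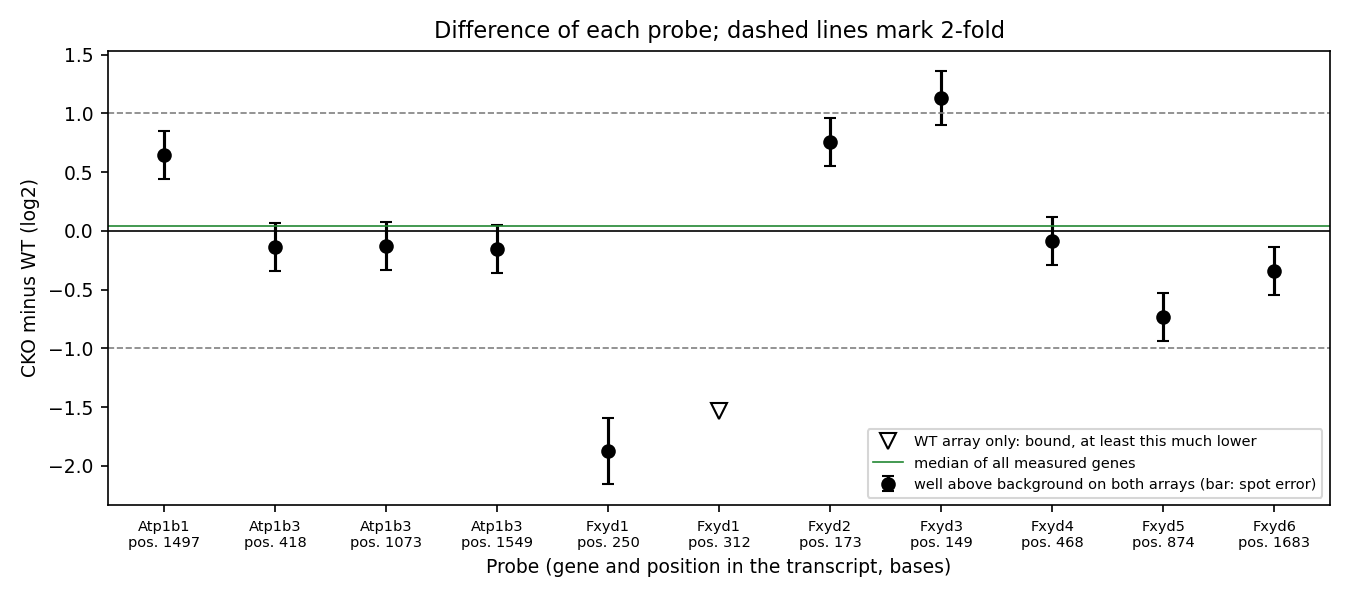
Difference of CKO minus WT (log2) for the 11 probes that were well above background on either array; bars are the spot error, the open triangle is a bound, dashed lines mark 2-fold and the green line the median of all measured genes, 0.04. Atp1b1, Fxyd2 and Fxyd3 lie above 0 by more than their error, the Fxyd1, Fxyd5 and Fxyd6 probes below it.

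The remaining FXYD genes are best known outside the collecting duct, and the largest differences of the family were among them. Fxyd1, phospholemman, the main FXYD protein of heart and skeletal muscle, was lower on the CKO array. Its junction probe had signals of 91.4 in WT and 19.8 in CKO, so that the CKO level was 27.2% of the WT level. This is a difference of −1.88 ± 0.28, or 3.67-fold lower. Only 0.854% of measured genes were at least as much lower. Its other probe, at chr7:31836927-31836986, had signals of 41.9 and 10.1, the latter not well above background, and gave a level at least 2.89-fold lower. Both probes are dim, in the lowest of 5 brightness groups of probes, where repeated spots of 1 probe had a standard deviation of 0.28 and 4.35% of genes were at least 2-fold lower. With normexp, whose offset shrinks differences of dim probes, the junction probe gave −0.51, short of 2-fold.

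Fxyd3, first described as Mat-8 in mammary tumours and found in stomach, colon and urinary epithelium, was higher on the CKO array. It gave signals of 48.3 in WT and 84.0 in CKO, a difference of 1.13 ± 0.23, or 2.19-fold. In all, 0.975% of measured genes were at least as much higher. Normexp gave 0.71 and spike-in scaling 0.58, both short of 2-fold, while quantile normalization gave 1.10 and cyclic loess 1.04. The probe is a single one, and repeated spots of its brightness group had a standard deviation of 0.15, with 1.33% of the group's genes at least 2-fold higher. Urothelial markers did not move one way: of 9, 5 were measured, with Krt5 at −0.67, Krt15 at −1.87 and Upk1a at 0.76, and Upk1b, Upk2 and Upk3a were well above background on neither array. Their part in the Fxyd3 difference was not tested.

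Fxyd5, dysadherin, which modulates cell adhesion as well as the pump, was lower on the CKO array. The signals were 875.5 and 419.7, a difference of −0.73 ± 0.20, or 1.66-fold lower, at chr7:31817824-31817883. Of all measured genes, 4.75% were at least as much lower. The difference varied little between −0.77 and −0.70 under normexp, quantile normalization and cyclic loess, and was −1.28 with spike-in scaling. The difference of Fxyd2 was 1.49 ± 0.29 and that of Fxyd4 0.64 ± 0.29 above that of Fxyd5.

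Fxyd6, phosphohippolin, a FXYD protein of the brain, rested on 1 of its probes. At position 1683, chr9:45204134-45204193, the signals were 270.6 in WT and 170.0 in CKO. The difference was −0.34 ± 0.21, which was −0.19, within its error, with normexp. The junction probe printed above, at position 448, had signals of 9.74 and 6.56 and was well above background on neither array, so it gives no value.

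Markers of several other cell types were lower beside Fxyd1, Fxyd5 and Fxyd6, though not those of lymphocytes or of neurons and glia, and their part in these differences was not tested. Of 14 genes of macrophages and dendritic cells, 14 were lower, beside 42% of all measured genes. Their median was −0.78, and their summed level was 175 in WT and 96.8 in CKO. Their brightest members were Lyz2 at −1.25, Cd74 at −0.65 and C1qc at −0.64. Fibroblast, pericyte and smooth muscle genes were lower in 10 of 12, with a median of −0.73 and summed levels of 34.8 and 27.3. Of these the smooth muscle actin Acta2 was at 0.05, Tagln at −0.79 and Dcn at −0.54. Endothelial genes were lower in 9 of 10, with a median of −0.26, and genes of podocytes and parietal cells, which are epithelial, in 7 of 7, with a median of −1.21. Of 7 measured lymphocyte genes 4 were higher and 2 lower, with a median of 0.01, and of 3 measured genes of neurons and glia 2 were higher, with a median of 0.18. The striated muscle genes Ckm, Myl1 and Tnnt3 and the neuronal genes Snap25 and Syt1 were well above background on neither array. Among the muscle genes measured, Actn3 was at 1.28, Tnnt2 at −0.50 and Myh6 at −0.66.

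Counted together, 3 of the 8 genes were higher and 5 lower, against 57.1% and 42% of all measured genes. At least 2-fold apart were 1 higher gene, Fxyd3, and 1 lower gene, Fxyd1, where 1.49% and 2.84% of the 18974 measured genes passed. Spike-in scaling turned those shares into 0.306% and 8.65%, and normexp into 0.343% and 1.08%. At 1.5-fold 3 genes were higher (Atp1b1, Fxyd2 and Fxyd3) and 2 lower (Fxyd1 and Fxyd5), against 6.78% and 6.36% of all genes. The median of the 8 genes was −0.12, beside 0.04 for all measured genes. Beyond their spot error lay 6 of the 8, a mark that 40.3% of all measured genes passed. With normexp no member was 2-fold apart in either direction, and with spike-in scaling none was higher and 2, Fxyd1 and Fxyd5, were lower.

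**Figure D3:**
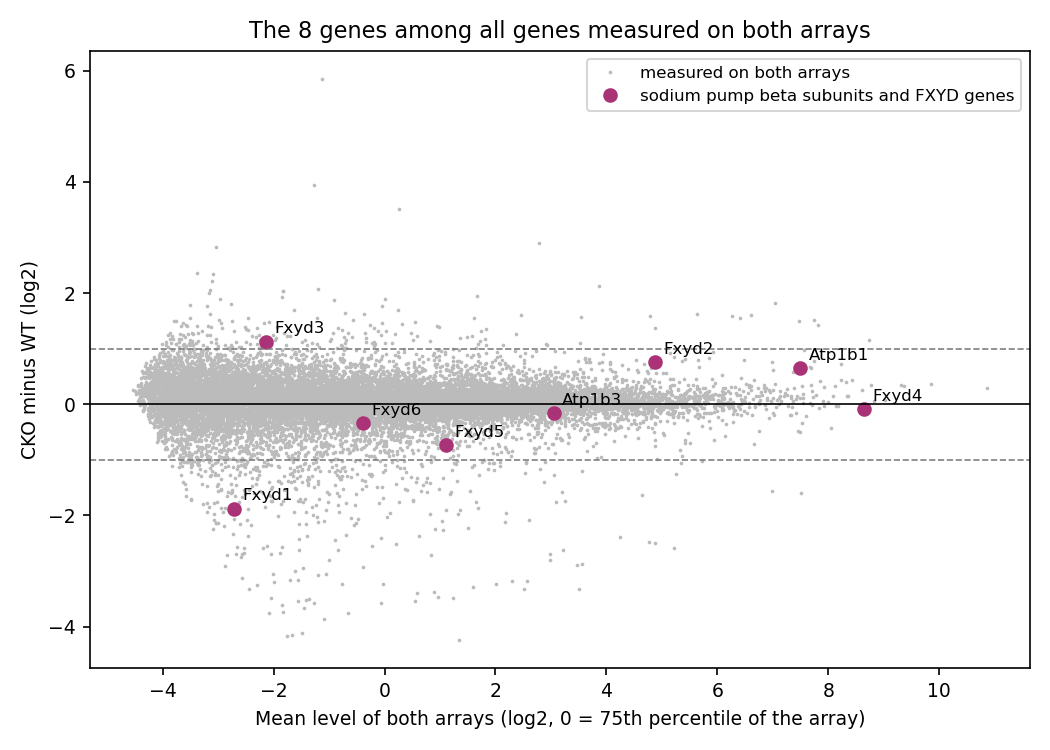
Difference of CKO minus WT (log2) against the mean level of both arrays for all genes measured on both (grey) and the 8 sodium pump beta subunit and FXYD genes (purple); dashed lines mark 2-fold. Atp1b1, Fxyd2 and Fxyd4 are bright and lie within 2-fold, while Fxyd1 and Fxyd3, past it, lie toward the dim end where the grey points spread widest.

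Most FXYD genes lie in clusters, so the position of the members was compared with their differences. The neighbouring genes were chosen after their values were seen. On chromosome 7, in RefSeq order, Fxyd5 is followed by Fxyd7, Fxyd1, Lgi4 and Fxyd3. Fxyd7, a FXYD protein of the brain, had signals of 37.2 in WT and 5.48 in CKO, the latter not well above background, which makes it at least 2.56-fold lower. The run thus went from −0.73 at Fxyd5 through at most −1.35 at Fxyd7 and −1.88 at Fxyd1 to 0.25 at Lgi4 and 1.13 at Fxyd3. The measured genes next to the cluster differed less. Usf2 was at 0.07, Lsr at −0.15 and Fam187b at 0.06 on the side of Fxyd5, and the protease gene Hpn was at 0.37 on the side of Fxyd3.

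On chromosome 9 the neighbours Fxyd6 and Fxyd2 differed in opposite directions, at −0.34 and 0.76. Their flanking genes Tmprss13, at 0.44, and Il10ra, at −0.44, lay on the side of Fxyd6, and Dscaml1, at 0.17, Cep164, at 0.08, and Bace1, at −0.05, on that of Fxyd2. On chromosome 6 the genes next to Fxyd4 were 4933440N22Rik at 0.77 and Rasgef1a at 0.50, both dim.

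**Figure D4:**
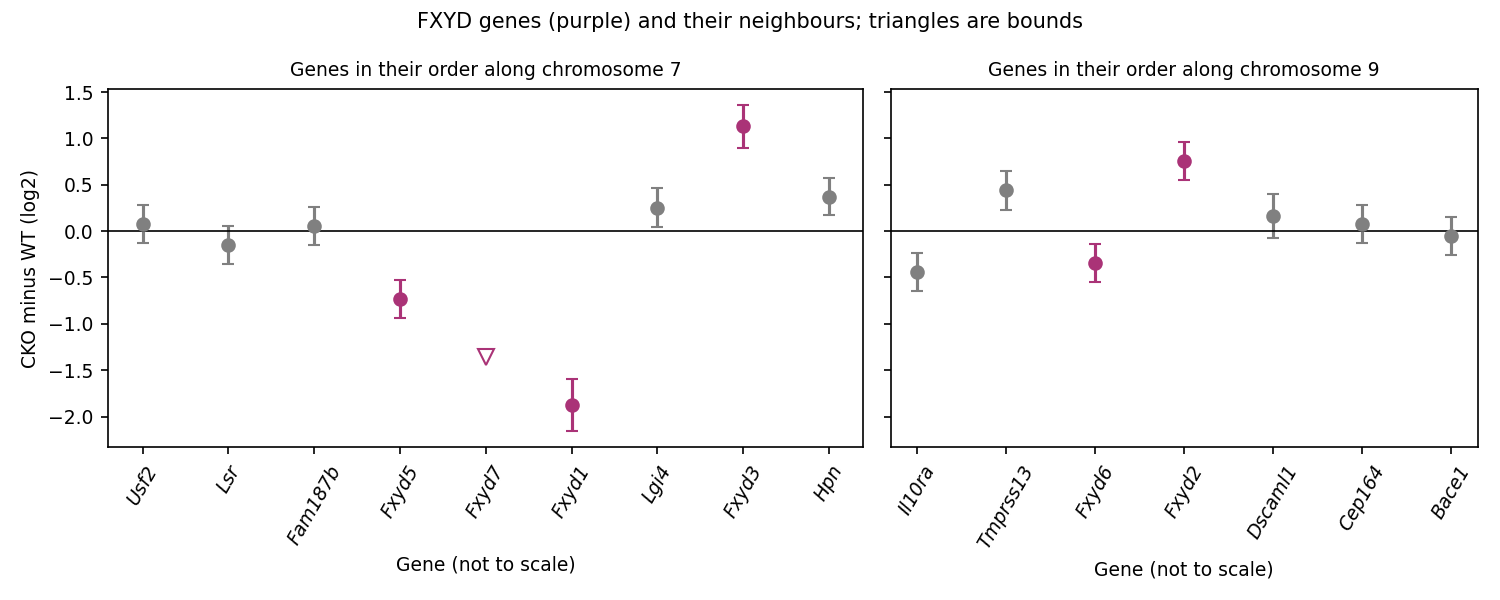
Difference of CKO minus WT (log2) of the FXYD genes (purple) and neighbouring genes (grey) in their order along chromosomes 7 and 9, not to scale; bars are spot errors and open triangles bounds. Fxyd5, Fxyd7 and Fxyd1 lie below 0 and Fxyd3 above it, and Fxyd6 and Fxyd2 lie on opposite sides of 0.

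Because the deleted factor binds GATA motifs, the 250 bases before the start of each gene were searched for the words AGATAA or AGATAG and for TGATAA or TGATAG on both strands, in RefSeq promoters of GRCm38.p6, another build than that of the files. The table held 8 starts of 7 of the 8 genes, all but Fxyd2. Of these, 1 start held such a word, and 26.5% of the 32851 promoters of the table did. That start is the second of Atp1b3, on chr9:96363716-96363965, minus strand, with the word in capitals at position −59.

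Atp1b3: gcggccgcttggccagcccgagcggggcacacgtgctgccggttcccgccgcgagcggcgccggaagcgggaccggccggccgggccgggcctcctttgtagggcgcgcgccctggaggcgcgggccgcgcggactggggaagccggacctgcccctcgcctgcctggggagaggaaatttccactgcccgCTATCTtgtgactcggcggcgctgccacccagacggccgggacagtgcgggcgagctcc

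The windows of the genes more than 2-fold apart, which lie near each other on chromosome 7, are shown beside it. Both are on the minus strand, Fxyd1 at chr7:31054854-31055103 and Fxyd3 at chr7:31076698-31076947, and neither holds any of the words.

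Fxyd1: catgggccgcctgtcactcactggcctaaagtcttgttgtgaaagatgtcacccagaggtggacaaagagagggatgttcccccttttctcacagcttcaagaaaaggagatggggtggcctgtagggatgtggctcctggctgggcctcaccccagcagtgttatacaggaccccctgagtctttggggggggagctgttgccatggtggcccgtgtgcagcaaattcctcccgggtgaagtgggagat

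Fxyd3: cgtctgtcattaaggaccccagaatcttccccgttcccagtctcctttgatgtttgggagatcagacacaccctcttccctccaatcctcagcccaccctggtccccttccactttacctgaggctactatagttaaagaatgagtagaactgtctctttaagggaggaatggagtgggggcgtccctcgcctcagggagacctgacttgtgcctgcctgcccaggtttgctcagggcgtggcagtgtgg

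A match is a description of letters and not a binding site, and sites further away were not searched.

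The last comparison set the members beside related genes from 4 lists. Of 14 relatives of the pump, 7 were measured, with 2 higher, 5 lower and a median of −0.12, beside 57.1% higher and 42% lower of all genes. The potassium pump subunits, which secrete acid in exchange for potassium, were lower on the CKO array where measured. Atp4a, the alpha subunit of the gastric pump, was at −1.13 ± 0.20 with signals of 1382 and 501.4, and Atp12a, that of the colonic pump, at −0.93 ± 0.27 with signals of 54.8 and 22.9. Atp4b, the beta subunit that pairs with Atp4a, was well above background on neither array. Atp1b2, named after its values were seen, was at −0.12 ± 0.22.

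Of 15 genes of aldosterone response and sodium reabsorption 11 were lower, beside 42% of all measured genes, and their median was −0.28. Hsd11b2, Kcnj1, Scnn1a, Scnn1b and Scnn1g are also on the principal cell list, so the counts of these lists are not separate observations. Slc12a3 and Klk1 are also on the list of the distal convoluted and connecting tubule. At least 1.5-fold apart were 3 lower and 1 higher, beside 6.36% and 6.78% of all measured genes. The kinase gene Sgk1 was at −0.98, the thiazide-sensitive cotransporter gene Slc12a3 at −0.78 and Hsd11b2, which protects the mineralocorticoid receptor from glucocorticoids, at −0.61. Klk1, tissue kallikrein, was the 1 member at least 2-fold apart, at 1.51, and close relatives leave its identity uncertain. Genes of magnesium handling and of Fxyd2 regulation were higher in 10 of 15, beside 57.1% of all measured genes, with a median of 0.15 and none 2-fold apart. The tight junction genes Cldn16 and Cldn19 were at 0.98 and 0.70, and Bsnd, barttin, a subunit of chloride channels, at 0.63. Another probe of Cldn19 gave 0.42. Cldn16, Cldn19 and Egf are also on the thick ascending limb list, and Trpm6 on that of the distal convoluted and connecting tubule. Partners of Fxyd5 in adhesion and inflammation were lower in 7 of 8, beside 42% of all measured genes, with a median of −0.16. At least 1.5-fold lower were 3, beside 6.36% of all measured genes, and the other lower ones lay within their spot error. The chemokine gene Ccl2 was at −2.68, Cd44 at −1.20 and Msn, moesin, at −0.99, with −1.24 and −0.15 at other probes of Msn, while Cdh1, E-cadherin, was at −0.05 and was named after its value was seen.

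**Figure D5:**
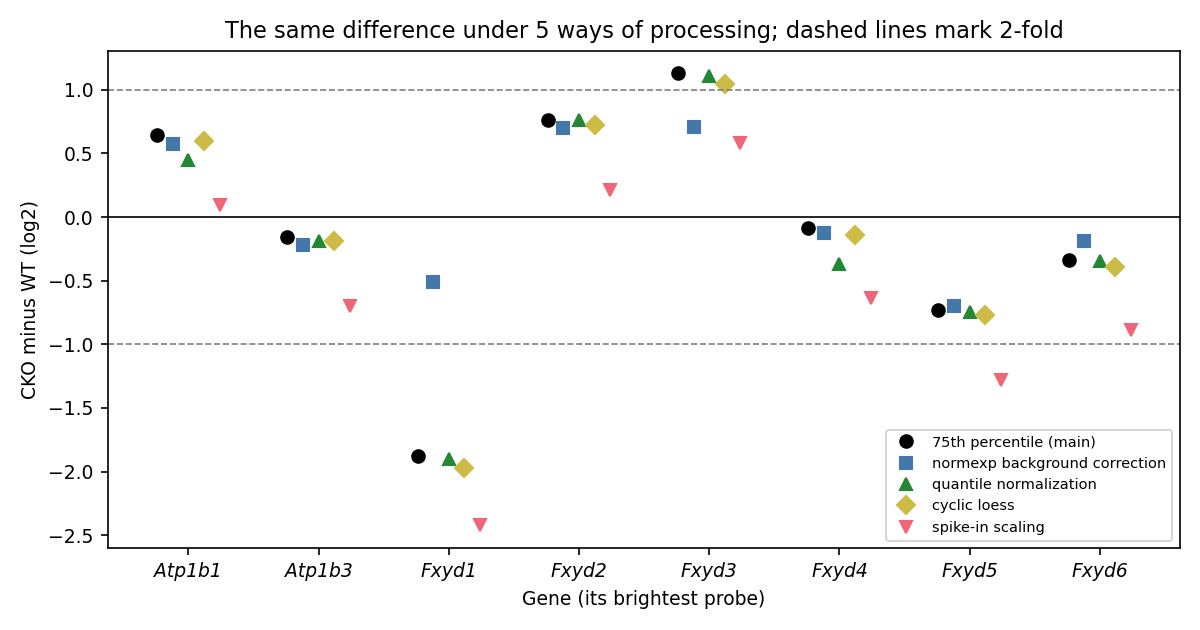
Difference of CKO minus WT (log2) of each gene's brightest probe under 5 ways of processing; dashed lines mark 2-fold. Signs are shared by all 5 for each gene, Fxyd1 moves from −1.88 to −0.51 with normexp, and spike-in scaling lowers every gene by 0.55.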

How the data were processed

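The deposited files hold linear spot intensity values from the scanner software. Per the file headers, these were extracted and detrended with Agilent Feature Extraction 10.7.3.1, and probes were placed on mm9. Of the 43379 spots per array that remained without controls, 66 (WT) and 73 (CKO) carried outlier flags and were dropped, and 0 were saturated. The processed signal was taken as log2 minus the 75th percentile of its array, and spots of 1 probe were averaged. Each gene was represented by its brightest probe with a signal well above background in WT, CKO or both. Where only 1 genotype passed, the other was set to the array's lowest passing signal, or to the probe's own if higher, which gives a bound. Accessions of 26876 probes were named through RefSeq. The members and lists were chosen with earlier results of these data known. Named genes are all members, up to 5 genes of each related list at least 1.5-fold apart, and bright markers. Exceptions are marked. Steps were tested on simulated data. Alternatives were normexp (offset 50), scaling on the median or on 8 spike-in transcripts, cyclic loess, quantile normalization, other filters on dim probes, keeping flagged spots, and the mean over probes. Python 3.11.15 was used, and limma 3.58.1 under R 4.3.3. Some related and neighbouring genes are not reported here.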

Additional observations from a re-analysis of the deposited data

How the results depend on the processing

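With 1 array per genotype the number of arrays limits the precision, and no alternative stands in for further mice. Under the alternatives tried, no member gene changed the sign of its difference. The counts of genes at least 2-fold higher and lower, 1 and 1, became 0 and 0 with normexp, whose offset shrinks differences of dim probes, and 0 and 2 with spike-in scaling. The median of the 8 genes, −0.12, was −0.67 with spike-in scaling, which put the median of all genes at −0.50, and lay between −0.27 and −0.11 otherwise. The 1.5-fold counts of 3 and 2 became 0 and 5 with spike-in scaling, 2 and 1 with normexp and 2 and 2 with quantile normalization. The summed level of thick ascending limb markers differed by −0.24 (log2), but by 0.18 without Kcnj1, an alternative chosen after seeing the data. Signal over background limits Fxyd1 in CKO and the junction probe of Fxyd6 on both arrays.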
